A study of Mus musculus with 20 samples.

Results

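The genes described here encode the major histocompatibility complex (MHC) class I and class II molecules, in the whole striatum of male mice. They were 9 genes, taken by symbol from a table of 37051 loci, of which 26475 carried a gene symbol. The class I genes were the heavy chain genes H2-K1, H2-D1, H2-T23 and H2-Q4 and the light chain gene B2m. The class II genes were H2-Aa, H2-Ab1, H2-Eb1 and Cd74. The 9 genes lay in 8 rows, because H2-D1 and H2-Q4 shared a row with H2-Q1 and H2-Q2, and H2-T23 shared one with H2-T9. All 8 rows were tested.

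The mice belonged to a control line or to a line bred for cage overactivity, and the labels describe all of them as Collaborative Cross, a panel of strains bred from several inbred founders. Each line had 5 mice given saline and 5 given d-amphetamine, a psychostimulant that raises extracellular dopamine, at 25 mg/kg. The striatum was taken 2 hours later from males of about 6 months, with 1 library per mouse. Because each phenotype is a line, the selected trait cannot be told apart from other differences fixed between the lines. Library totals ran from 31393788 to 53773028 counts. Levels are CPM, counts relative to the library size, scaled between libraries by TMM (trimmed mean of M values). Summed CPM of 10 striatal projection neuron markers lay between 4710 and 7780 in every library, with none of the 10 at 0.

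Class I molecules sit on most nucleated cells as a heavy chain bound to beta-2 microglobulin, the product of B2m, and show peptides from inside the cell to CD8 T cells. H2-K1 and H2-D1 are the classical heavy chain genes, while H2-T23 encodes Qa-1, a ligand of natural killer cell receptors, and H2-Q4 is a nonclassical gene of the Q cluster. In neurons, class I molecules are also known for a part in synapse remodelling. Class II molecules are alpha and beta chain pairs that show peptides to CD4 T cells, and in brain they are known mainly from activated microglia, border macrophages and dendritic cells. H2-Aa and H2-Ab1 encode the alpha and beta chain of I-A, H2-Eb1 the beta chain of I-E, and Cd74 the invariant chain that guides class II molecules to the endosome.

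On GRCm38 in the GENCODE M21 annotation, all 7 H2 genes are protein coding and lie in the MHC on chromosome 17. From the centromere side they are H2-K1 (33996017 to 34000347, minus strand), H2-Ab1 (34257689 to 34269419, plus), H2-Aa (34282744 to 34287823, minus) and H2-Eb1 (34305867 to 34316674, plus). H2-D1 (35262730 to 35267499, plus), H2-Q4 (35379617 to 35385290, plus) and H2-T23 (36029773 to 36032855, minus) follow. B2m lies on chromosome 2 (122147686 to 122153083, plus).

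Promoters of both classes were searched for short strings, and 5 of them are printed. They are from the 2 genes that passed a test below (H2-K1 and B2m), the other classical heavy chain gene (H2-D1) and a pair of class II chains whose levels varied together (H2-Aa and H2-Eb1). Each is the 150 bases before a RefSeq start on GRCm38.p6, on the gene's strand, and 7 of the 9 genes had such a sequence for use. Capitals mark matches, on either strand, to AANNGAAA (the core of interferon response elements, present in 12.4% of 32851 promoters of this length), CTNGCAACT (a form of the X1 box, 0.514%), TGACG (the X2 box core, 13.3%) and CCAAT (the Y box core, 24.5%).
The positions are H2-K1 chr17:34000334-34000483 (minus), H2-D1 chr17:35262944-35263093 (plus), B2m chr2:122147537-122147686 (plus), H2-Aa chr17:34287824-34287973 (minus) and H2-Eb1 chr17:34305717-34305866 (plus).
H2-K1: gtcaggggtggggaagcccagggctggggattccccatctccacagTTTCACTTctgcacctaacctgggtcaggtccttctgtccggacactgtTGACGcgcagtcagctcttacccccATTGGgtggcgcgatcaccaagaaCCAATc
H2-D1: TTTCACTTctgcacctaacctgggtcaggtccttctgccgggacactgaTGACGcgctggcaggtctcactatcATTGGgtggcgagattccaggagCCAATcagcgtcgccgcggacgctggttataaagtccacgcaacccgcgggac
B2m: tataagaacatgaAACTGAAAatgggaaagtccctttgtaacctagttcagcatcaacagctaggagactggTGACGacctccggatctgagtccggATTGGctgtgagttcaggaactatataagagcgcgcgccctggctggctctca
H2-Aa: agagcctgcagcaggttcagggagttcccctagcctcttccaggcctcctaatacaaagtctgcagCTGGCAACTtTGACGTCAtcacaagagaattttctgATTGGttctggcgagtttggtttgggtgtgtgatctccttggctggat
H2-Eb1: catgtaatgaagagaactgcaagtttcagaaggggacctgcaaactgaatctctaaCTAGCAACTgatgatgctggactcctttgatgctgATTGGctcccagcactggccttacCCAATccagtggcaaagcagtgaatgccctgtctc
H2-K1, H2-D1 and B2m each held the interferon core once, in H2-K1 and H2-D1 as TTTCACTT on the strand printed, followed by TGACG. The class I promoters not printed differed from this: H2-Q4 held TGACG once and 0 interferon cores, and H2-T23 held 2 cores and 0 TGACG. H2-Aa and H2-Eb1 held the string CTNGCAACT, which was not found in the 3 class I promoters, and in H2-Aa 2 TGACG matches on opposite strands overlap as TGACGTCA. Other forms of the X1 box were not searched for, so whether the class I promoters hold one was not tested. CCAAT was matched in all 5. A match is a string of letters and not a measured binding site, and the strings are those of the reference strain.

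The class I genes were the more abundant. Per kilobase of annotated exon, B2m stood at 57.4 CPM and H2-K1 at 1.77 CPM on average over the 20 libraries. Cd74 followed at 0.586 CPM per kilobase, then H2-Ab1 at 0.197, H2-Eb1 at 0.144 and H2-Aa at 0.0774. The SD over libraries was 0.448 for Cd74, 0.175 for H2-Ab1, 0.121 for H2-Eb1 and 0.069 for H2-Aa, so neighbours in the class II order lay within their spread. The length used is the union of all annotated exons, 3798 bases for H2-Aa and 1944 for H2-Eb1. Their protein coding transcripts held 1127 and 1796 distinct 50-base stretches. The order of H2-Aa and H2-Eb1 therefore depends on the length chosen, and their CPM averaged 0.294 and 0.28. The row of H2-D1 and H2-Q4 (13.8 ± 3.29 CPM) and that of H2-T23 (4.28 ± 0.795 CPM, SD, n = 20) hold several genes, and no level per length was computed for them. In raw counts, H2-K1 held 111 to 363 per library and B2m 1585 to 2641, while H2-Aa held 2 to 49, H2-Eb1 2 to 43, H2-Ab1 0 to 65 and Cd74 9 to 148.

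Near-identical copies and founder differences limit what the H2 rows count. In the reference transcripts, 28.8% of the 50-base stretches of H2-T23, 24.3% of those of H2-Q4, 13.9% of those of H2-D1 and 6.87% of those of H2-K1 also occurred in transcripts of other genes. For B2m, Cd74, H2-Aa, H2-Ab1 and H2-Eb1 the share was 0%. The heavy chain values are therefore uncertain as to which copy gave the reads. The submitters' processing notes name mm10, which is the C57BL/6J genome, and reads from other founder haplotypes can map less well to it where the MHC differs. The haplotypes of these mice were not analysed here, and the part of mapping bias in any difference below was not tested.

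The first question was whether the lines differed. Over both treatments H2-K1 and B2m were lower in the overactive line, and none of the 8 rows was higher. The class I member rows all had negative fold changes (median log2 -0.19, against 0.00 for the median of all loci tested). So did 3 of the 4 class II member rows (median -0.32), none of which passed. Rows that hold other class I genes did not share this direction, with 8 of 13 positive (median 0.12). The background is high in this comparison: edgeR's quasi-likelihood test called 1208 of 17206 loci at an adjusted p under 0.05, or 7.02%, with 638 (3.71%) higher and 570 (3.31%) lower. The 2 lower rows of 8 stand against this share.

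H2-K1 in control saline libraries 1 to 5 stood at 9.11, 7.40, 4.93, 5.94 and 5.12 CPM, and in control amphetamine libraries at 9.07, 7.86, 3.22, 5.35 and 4.30 CPM. In overactive saline libraries it stood at 5.97, 4.45, 4.18, 4.13 and 4.50 CPM, and in overactive amphetamine libraries at 4.22, 4.19, 2.36, 4.05 and 3.61 CPM. The 4 highest libraries were all of the control line (libraries 1 and 2 of either treatment), and 9 of 10 overactive libraries lay below the control median of 5.65 CPM. The means were 6.23 ± 2.03 CPM in the control line and 4.17 ± 0.884 CPM in the overactive line (SD, n = 10). The log2 fold change was -0.59 (SE 0.17, edgeR adjusted p = 0.0468), while the lines overlapped.

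B2m in control saline libraries 1 to 5 stood at 47.8, 57.5, 51.3, 42.5 and 60.3 CPM, and in control amphetamine libraries at 57.7, 53.5, 53.0, 53.0 and 61.6 CPM. In overactive saline libraries it stood at 46.9, 42.4, 40.6, 45.4 and 45.8 CPM, and in overactive amphetamine libraries at 45.3, 60.6, 40.0, 44.8 and 38 CPM. Of the overactive libraries, amphetamine library 2 alone reached the upper control range, and the other 9 lay below the control median of 53.3 CPM. The means were 53.8 ± 5.79 CPM and 45.0 ± 6.21 CPM (SD, n = 10). On the log2 scale B2m was lower by a fold change of -0.26 (SE 0.08, edgeR adjusted p = 0.0454).

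Both calls sat at the threshold. The direction held in each of the 20 fits that left out 1 library (log2 -0.67 to -0.49 for H2-K1 and -0.32 to -0.23 for B2m), but H2-K1 lost its call in 14 of them (adjusted p up to 0.0882) and B2m in 17 (up to 0.0871). H2-K1 kept its call only without control saline library 3 or 4, control amphetamine library 3 or 5, or library 1 of either overactive group, and B2m only without control saline library 4, overactive saline library 5 or overactive amphetamine library 2. Summed CPM of 9 cortical neuron markers ranged from 336 to 973 in control and 166 to 1110 in overactive libraries, and that of 9 thalamic and septal markers from 157 to 267 and 174 to 499. Between the lines the cortical markers had a median log2 of -0.72 with 0 of 9 positive, and 1 passed, Rtn4rl2 (-0.99, adjusted p = 0.0372). The thalamic and septal markers had a median of 0.68 with 9 of 9 positive, and 0 passed. The 4 libraries highest in the thalamic sum were all of the overactive line (saline 1 and 4, amphetamine 2 and 3), so a fit without them set 10 control against 6 overactive libraries. In it B2m passed (-0.33, adjusted p = 0.0321), and H2-K1 had nearly the same fold change as before and did not pass (-0.58, adjusted p = 0.163). With both sums as covariates, neither gene passed (H2-K1 -0.43, adjusted p = 0.424; B2m -0.31, adjusted p = 0.142). These fits were chosen after seeing the data. In bulk tissue, fewer cells of a type and less RNA per cell cannot be told apart.

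**Figure D1:**
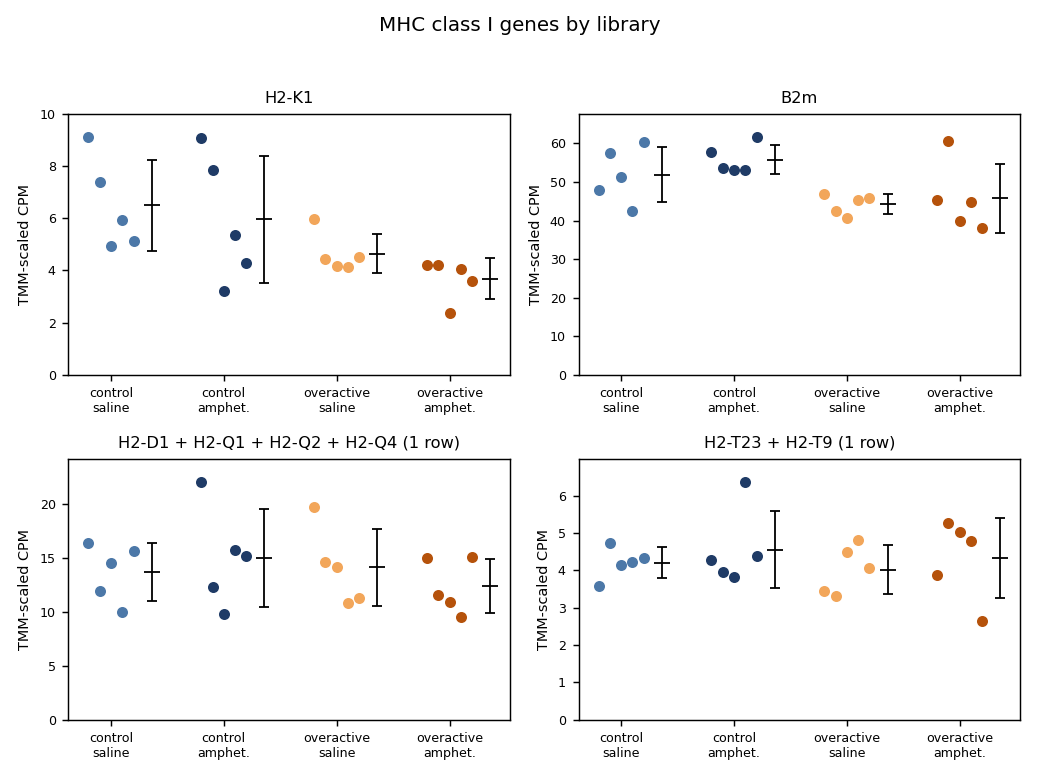
TMM-scaled CPM of the 4 class I rows (vertical axes) in the 4 groups, with 1 point per library and the mean ± SD (n = 5) as a bar beside it. H2-K1 and B2m have their lowest group means in the overactive line (4.65 and 3.69 CPM, and 44.2 and 45.8 CPM), with overlap between the lines in both.

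Within a treatment the same genes did not pass. In saline H2-K1 differed by log2 -0.48 (SE 0.25, adjusted p = 0.319) and B2m by -0.23 (SE 0.11, adjusted p = 0.273). Under amphetamine H2-K1 differed by -0.70 (SE 0.25, adjusted p = 0.248) and B2m by -0.29 (SE 0.11, adjusted p = 0.271). Of all loci, 191 (1.11%) were called in saline and 78 (0.453%) under amphetamine, and 0 of the 8 rows were among them in either.

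The other heavy chain rows were close between the lines. The row of H2-D1 and H2-Q4 stood at 16.4, 11.9, 14.5, 9.96 and 15.6 CPM in control saline and 22, 12.3, 9.83, 15.7 and 15.2 CPM in control amphetamine libraries. It stood at 19.7, 14.6, 14.2, 10.8 and 11.3 CPM in overactive saline and 15.0, 11.6, 10.9, 9.48 and 15.1 CPM in overactive amphetamine libraries. Libraries spread over the same range in both lines, and the fold change was log2 -0.12 (SE 0.15, adjusted p = 0.66). The row of H2-T23 ranged from 3.58 to 6.36 CPM in the control line and 2.65 to 5.28 CPM in the overactive line (log2 -0.07, SE 0.12, adjusted p = 0.763).

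Class II genes spread widely between libraries of a group. Cd74 (chromosome 18, 60803848 to 60812652, plus strand) in control saline libraries 1 to 5 stood at 0.795, 0.732, 2.95, 0.916 and 1.05 CPM, and in control amphetamine libraries at 0.924, 1.12, 0.841, 1.21 and 0.792 CPM. In overactive saline libraries it stood at 0.310, 0.224, 0.485, 1.35 and 0.868 CPM, and in overactive amphetamine libraries at 3.03, 0.813, 0.494, 0.608 and 0.184 CPM. A single library in each line was near 3 CPM, and 6 of 10 overactive libraries lay below the lowest control library. The log2 fold change between the lines was -0.47 (SE 0.42, adjusted p = 0.516). Control saline library 3 and overactive amphetamine library 1 together held 34.5% of all Cd74 counts, 36.4% of those of H2-Aa, 31.4% of those of H2-Eb1 and 18.7% of those of H2-Ab1.

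H2-Aa in control saline libraries 1 to 5 stood at 0.291, 0.282, 1.05, 0.491 and 0.228 CPM, and in control amphetamine libraries at 0.150, 0.224, 0.145, 0.553 and 0.264 CPM. In overactive saline libraries it stood at 0.0517, 0.149, 0.115, 0.373 and 0.0914 CPM, and in overactive amphetamine libraries at 0.860, 0.188, 0.146, 0.168 and 0.0612 CPM. Of the 5 overactive saline libraries, 4 lay below every control saline library. The saline difference was log2 -1.61 (SE 0.66, adjusted p = 0.217), and over both treatments it was -0.76 (SE 0.46, adjusted p = 0.31).

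H2-Ab1, the partner chain of H2-Aa, had the 1 positive fold change (log2 0.90, SE 0.57, adjusted p = 0.328). It stood at 0.450, 0.197, 1.09, 0.447 and 0.137 CPM in control saline and 0.125, 0.192, 0.580, 0.277 and 0.0720 CPM in control amphetamine libraries. It stood at 0.0517, 0.274, 0.716, 1.58 and 1.48 CPM in overactive saline and 0.594, 0.438, 0.750, 0.692 and 0 CPM in overactive amphetamine libraries. The ratio of the partner chains varied between libraries, at counts of 2 to 49 for H2-Aa and 0 to 65 for H2-Ab1. At such counts single ratios are imprecise: the highest came from 65 H2-Ab1 and 4 H2-Aa counts, the lowest from 0 and 3. H2-Ab1 counts were 0.273 to 4 times those of H2-Aa in control libraries (median 0.845, above 1 in 3 of 10) and 0 to 16.2 times in overactive libraries (median 3.22, above 1 in 7 of 10). This ratio was computed after the values were seen, and its difference was not tested. H2-Eb1 ranged from 0.0563 to 0.704 CPM in the control line and from 0.0408 to 0.880 CPM in the overactive line (log2 -0.18, SE 0.51, adjusted p = 0.862).

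**Figure D2:**
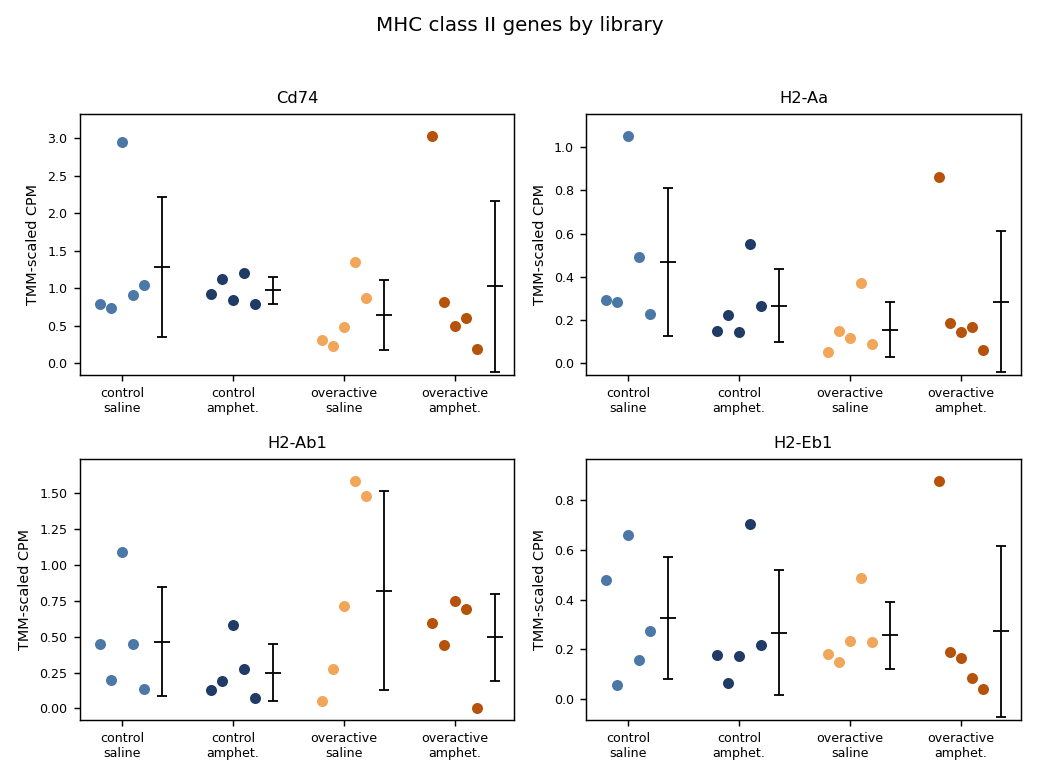
TMM-scaled CPM of Cd74, H2-Aa, H2-Ab1 and H2-Eb1 (vertical axes) in the 4 groups, with 1 point per library and the mean ± SD (n = 5) as a bar beside it. Control saline library 3 and overactive amphetamine library 1 are high in Cd74, at 2.95 and 3.03 CPM, while H2-Ab1 is highest in overactive saline libraries 4 and 5.

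Across the 20 libraries, which share the striatal dissection, H2-Aa followed Cd74 (Pearson r = 0.84 on log2(CPM + 0.1)) and H2-Eb1 (0.70), and Cd74 followed H2-Eb1 (0.70). Taken as deviations from the 4 group means, these values were 0.82, 0.78 and 0.75. H2-Ab1 had r = 0.35 with H2-Aa, 0.44 with H2-Eb1 and 0.47 with Cd74 over all libraries, and 0.52, 0.46 and 0.67 within groups. With the row of H2-D1 and H2-Q4 it had r = -0.58, and -0.60 within groups. H2-K1 had r = 0.48 with the H2-D1 row, both pooled and within groups. With B2m it had 0.41 pooled and 0.16 within groups, where the line difference that both genes share is taken out. Summed meningeal markers had r of 0.47 to 0.57 with the class II genes, summed microglial markers 0.05 to 0.17 and summed border macrophage markers 0.01 (Cd74) to 0.51 (H2-Ab1). The 9 meningeal markers summed to 31.9 to 112 CPM in control and 32.5 to 112 CPM in overactive libraries, with 112 CPM in control saline library 3 and 68.5 CPM in overactive amphetamine library 1, the pair high in Cd74. Overactive saline library 4 also reached 112 CPM, with Cd74 at 1.35 CPM, and control saline library 4 and overactive amphetamine libraries 3 and 2 held 79.5, 78.1 and 73.6 CPM, with Cd74 at 0.916, 0.494 and 0.813 CPM. The meningeal part in the class II levels was not tested.

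The 5 loci closest to the mean class II profile over the 20 libraries were Mrgprf (r = 0.87), Aldh1a2 (0.81), Bmp6 (0.79), Slc22a6 (0.79) and Colec12 (0.78). Those closest to the mean class I profile were Bre (0.79), Mrpl11 (0.76), Orc6 (0.76), Trappc6a (0.74) and E430024P14Rik (0.73). These are the highest values among 17206 loci and serve as a description.

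The second question was what amphetamine did to these genes. None of the 8 rows passed in the control line, in the overactive line or over both lines, where 0 of 17206 loci (0%) passed in each. At an unadjusted p under 0.05, 957, 1382 and 1895 loci stood in these comparisons, and 0 of the 8 rows in each. Over both lines the mean of H2-K1 was 5.57 ± 1.61 CPM after saline and 4.82 ± 2.09 CPM after the drug (SD, n = 10), a difference of log2 -0.23 (SE 0.17, adjusted p = 0.666). B2m measured 48.1 ± 6.51 and 50.8 ± 8.31 CPM (0.08, SE 0.08, adjusted p = 0.769). The rows of H2-D1 and of H2-T23 had fold changes of -0.02 (SE 0.15) and 0.11 (SE 0.12). Those of the class II genes were 0.04 (SE 0.43) for H2-Aa, -0.82 (SE 0.57) for H2-Ab1, -0.08 (SE 0.51) for H2-Eb1 and 0.13 (SE 0.42) for Cd74. At these counts, class II changes of the size of their SE were not detectable. Cortical neuron markers differed with the drug as well, with 9 of 9 positive over both lines (median log2 0.94), of which 9 had an unadjusted p under 0.05 and 0 passed. Their part in the values of the 8 rows was not tested beyond the fit with marker sums as covariates, in which 0 of the 8 passed.

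**Figure D3:**
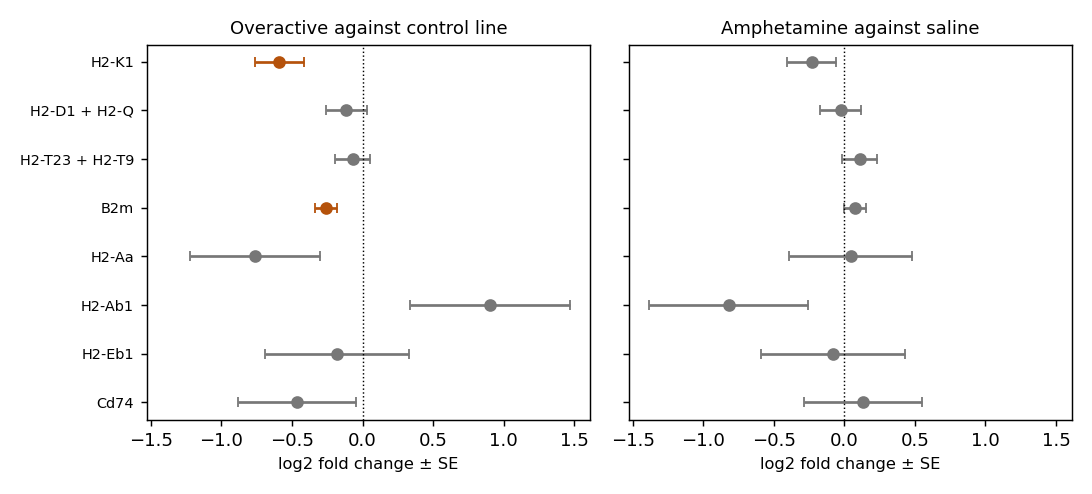
Log2 fold changes of the 8 rows (horizontal axes, points) with their SE (bars), for the overactive against the control line over both treatments at left and for amphetamine against saline over both lines at right. Orange marks an adjusted p under 0.05, reached by H2-K1 (-0.59) and B2m (-0.26) at left and by no row at right, and class II rows have the wider bars.

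Whether the lines responded differently to the drug was tested in the same model. This contrast called 0 of 17206 loci (0%; 510 at an unadjusted p under 0.05) and 0 of the 8 rows. H2-Aa had a value of log2 1.70 (SE 0.92, adjusted p = 1), with means of 0.468 and 0.267 CPM in control saline and amphetamine and 0.156 and 0.285 CPM in overactive saline and amphetamine libraries. For H2-K1 and B2m it was -0.21 (SE 0.35) and -0.06 (SE 0.15).

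Among genes that load and regulate class I, 0 of the 14 measured passed between the lines over both treatments (7.02% of all loci did), and 13 had a positive fold change (median log2 0.07). Whether they differed from H2-K1 and B2m was not tested. The peptide transporter gene Tap1 had a value of 0.02 (SE 0.14), the immunoproteasome gene Psmb8 0.02 (SE 0.12) and Nlrc5, the activator of class I transcription, -0.15 (SE 0.22). The values of Tap1 and Psmb8 were near 0, and their signs turned in several fits, among them those without single libraries. Of 34 interferon-responsive genes tested, 1 was lower and 0 higher (median -0.12, 7 positive), a share not above the 7.02% of all loci. The lower gene was Gbp2, an interferon-induced GTPase, at 3.61 ± 1.20 CPM in the control line and 2.27 ± 0.336 CPM in the overactive line (SD, n = 10, log2 -0.67, SE 0.17, adjusted p = 0.0213). Without the 4 libraries highest in thalamic markers Gbp2 did not pass (-0.75, adjusted p = 0.0802).

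Among 12 genes of class II loading and regulation, 1 was lower and 0 higher in the overactive line, near the share of all loci called (7.02%). It was Ctss, the protease cathepsin S that trims the invariant chain encoded by Cd74. Ctss stood at 80.3, 84.8, 79.0, 70.4 and 110 CPM in control saline and 94.0, 97.9, 89.5, 89.3 and 76.2 CPM in control amphetamine libraries. It stood at 70.6, 76.4, 83.0, 61.5 and 63.5 CPM in overactive saline and 49.6, 65.5, 67.8, 58.6 and 67.0 CPM in overactive amphetamine libraries. Under amphetamine every overactive library was below every control library, though the share of all loci separated in this way was not computed. The fold change was log2 -0.40 over both treatments (SE 0.08, adjusted p = 0.00662) and -0.54 under amphetamine (adjusted p = 0.0405), and the latter call was lost in 8 of 20 fits without 1 library (adjusted p up to 0.0878). Ciita, the master activator of class II transcription, measured 3.24 ± 0.560 and 2.64 ± 0.626 CPM (SD, n = 10, log2 -0.30, SE 0.14, adjusted p = 0.179), and its fold change was -0.10 (adjusted p = 0.748) without the 4 libraries highest in thalamic markers.

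Of 13 tested rows that hold other class I genes, 2 of them also holding members, 8 had a positive fold change (median log2 0.12). In the overactive line 1 was higher and 0 lower, again near the 7.02% of all loci. The higher row was that of Cd1d1, which presents lipids to natural killer T cells. Cd1d1 measured 0.937 ± 0.244 CPM in the control and 1.45 ± 0.332 CPM in the overactive line (SD, n = 10, log2 0.62, SE 0.17, adjusted p = 0.0308), and it lost its call in 8 of 20 fits without 1 library and when the 4 thalamic-high libraries were left out (0.44, adjusted p = 0.264). Of 3 other class II rows tested 0 passed. H2-Ea-ps, which in the reference is a pseudogene of the I-E alpha chain, averaged 0.174 CPM and was not tested. Of 8 receptor genes listed, 2 could be tested, the class I receptor gene Klra2, which did not pass, and Cd4, whose product is the T cell coreceptor for class II. Cd4 was lower in the overactive line, at 70.7 ± 14.9 and 49.4 ± 8.18 CPM (SD, n = 10, log2 -0.52, SE 0.12, adjusted p = 0.014), and did not pass without the 4 libraries (-0.40, adjusted p = 0.127). The T cell gene Cd3e held at most 2 counts in a library, and which cells gave the Cd4 reads was not tested.

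Markers of cells that can carry these molecules were read beside the members, between the lines over both treatments. Of 8 border macrophage markers tested 0 passed, with 4 positive and a median log2 of -0.01. Of 16 microglial markers, 3 rows were lower in the overactive line, namely C1qc (log2 -0.41, adjusted p = 0.00582), Trem2 (-0.48, adjusted p = 0.0175) and the row of Aif1 and Lst1 (-0.36, adjusted p = 0.036), and 1, Itgam, was higher (0.44, adjusted p = 0.00849). Of all loci, 7.02% were called. The 16 markers did not move together, with 7 positive, a median log2 of -0.04 and a range of -0.48 to 1.39. Without the 4 libraries highest in thalamic markers, C1qc (adjusted p = 0.0495) and Itgam (0.0381) passed. Trem2 (0.0705) and the Aif1 and Lst1 row (0.108) did not. Summed CPM of the 16 ranged from 516 to 637 in control and from 503 to 627 in overactive libraries. Of 6 dendritic cell markers tested, 4 were positive (median log2 0.06). Of them 1 passed and was lower, Itgax, at 0.388 ± 0.210 and 0.127 ± 0.0712 CPM (SD, n = 10, log2 -1.57, SE 0.39, adjusted p = 0.0213). Itgax held at most 25 counts in a library and did not pass without the 4 thalamic-high libraries (-1.84, adjusted p = 0.0637). Most lymphocyte markers were at or near 0. Those of highest mean, named here for that, were the B cell gene Cd79a (0.256 CPM) and, of the T and natural killer list, Cd2 (0.13 CPM). Cd79a was near the level of H2-Aa (0.294 CPM) and H2-Eb1 (0.28 CPM), and it did not pass. The T cell gene Cd3e averaged 0.00796 CPM, with at most 2 counts in a library, the 9 T and natural killer cell markers summed to at most 0.512 CPM, and the 6 B cell markers to at most 0.473 CPM. The part of microglial composition in the lower H2-K1 and B2m was not tested. With the cortical and thalamic sums as covariates Itgam kept its call (0.61, adjusted p = 0.00633), while 8 other rows kept their direction and did not pass (adjusted p 0.0774 to 0.491). Among them the fold changes of Ctss (-0.41), C1qc (-0.38), Trem2 (-0.46), Itgax (-1.61) and the Aif1 and Lst1 row (-0.44) stayed close to those without covariates. Those of Gbp2 (-0.59) and Cd4 (-0.38) were somewhat smaller, and that of Cd1d1 was 0.30 against 0.62.

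The MHC region, taken as chromosome 17 from 33 to 38 Mb, was then compared with the rest of the genome. Between the lines over both treatments 4 of its 151 tested loci passed (2.65%), among them H2-K1, against 7.06% of all other loci and 11.1% of the other loci of chromosome 17. The other 3 were Ddr1, a collagen receptor kinase gene (log2 0.23, SE 0.06, adjusted p = 0.032), the Aif1 and Lst1 row, and LOC100861596 (0.77, SE 0.22, adjusted p = 0.0419). The next by p were Rab11b (-0.09, adjusted p = 0.057) and Zfp955b (-0.18, adjusted p = 0.0663), which did not pass. In fits without 1 library, Ddr1 lost its call in 6 of 20, the Aif1 and Lst1 row in 10 and LOC100861596 in 11, and with the marker sums as covariates Ddr1 did not pass (adjusted p = 0.335). In saline and under amphetamine 0 of the 151 passed.

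**Figure D4:**
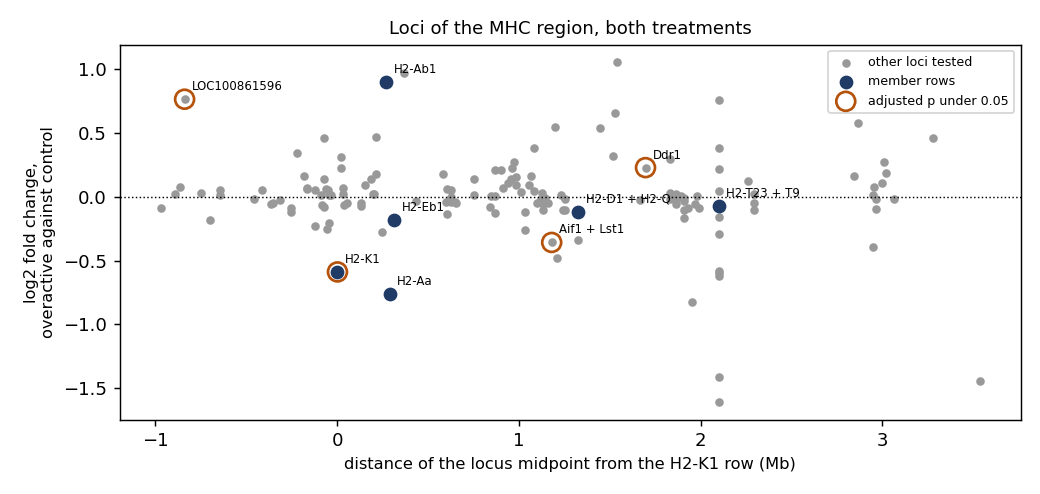
Log2 fold change of the overactive against the control line over both treatments (vertical axis) for the 151 tested loci of the MHC region, against the distance of each locus midpoint from the H2-K1 row in Mb (horizontal axis). Dark points are member rows and orange rings the 4 loci that passed. Rows of 1 locus bundle share a midpoint, as at the H2-T23 row.

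H2-T10, a class I gene of the T cluster that GENCODE lists as a polymorphic pseudogene (chromosome 17, 36115876 to 36121465, minus strand), showed steps between libraries that the groups did not account for. It was singled out after its values were seen. H2-T10 stood at 2.25, 2.48, 2.43, 2.37 and 14.1 CPM in control saline and 26, 15.4, 2.23, 15.3 and 14.7 CPM in control amphetamine libraries. It stood at 24.8, 14.8, 14.9, 3.30 and 1.83 CPM in overactive saline and 14.7, 3, 2.50, 2.24 and 27.4 CPM in overactive amphetamine libraries. The values fell into 3 separate ranges, with 10 libraries at 1.83 to 3.30 CPM, 7 at 14.1 to 15.4 CPM and 3 at 24.8 to 27.4 CPM, and each range held libraries of both lines. Between the lines H2-T10 differed by log2 0.39 (SE 0.57, adjusted p = 0.713). Neither genotypes nor allele-specific reads were analysed here, and whether the steps follow haplotypes was not tested. The H2-T23 row, of the same cluster, ranged from 2.65 to 6.36 CPM over the 20 libraries. Other class I rows ranged more widely, with H2-T22 at 3.77 to 11.2, H2-T24 at 1.52 to 8.17 and the H2-Bl row at 0.449 to 7.85 CPM. These rows were also named after their values were seen. Stretches that H2-T10 shares with other genes were not computed.

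**Figure D5:**
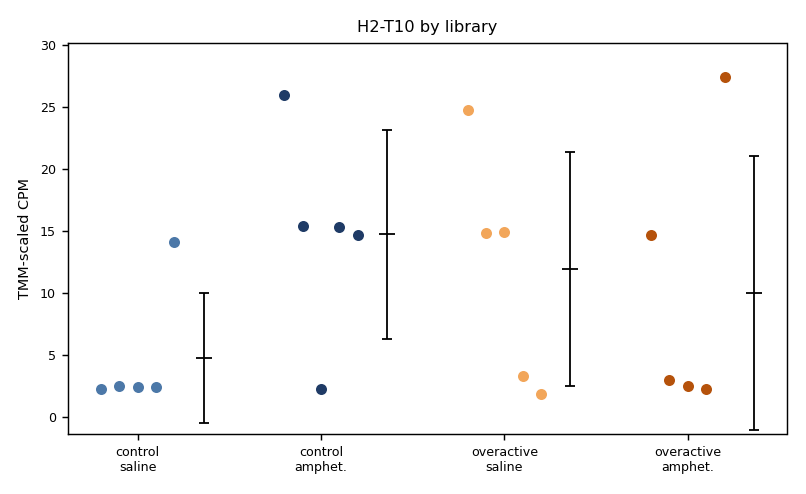
TMM-scaled CPM of H2-T10 (vertical axis) in the 4 groups, with 1 point per library and the mean ± SD (n = 5) as a bar beside it. The libraries sit at 1.83 to 3.30, 14.1 to 15.4 or 24.8 to 27.4 CPM, and each range holds libraries of both lines.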

How the data were processed

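RNA from the striatum of 20 mice was sequenced with paired ends on an Illumina platform, per the labels. The authors deposited 1 table of expected counts per locus, not scaled between libraries. The submitters' processing notes name mm10 and GRCm38, and the aligner and counter are not given in the sources used here. Rows without a symbol (10576 of 37051, with 0.591% to 0.714% of the counts per library) were left out, and expected counts were rounded. Members and gene lists were chosen with earlier results of these data known. Each member was its row of highest mean count. All other genes were named by a rule: genes of each list that passed, up to 6 per list and comparison, with Nlrc5, Ciita, Tap1, Psmb8 and H2-Ea-ps regardless, and the 5 loci of smallest p in the MHC region. Exceptions are marked in the text, and 1 gene that the rule takes is not reported here.

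In R 4.3.3, edgeR 4.0.16 fitted 1 quasi-likelihood model with 1 mean per group to the 17206 loci that filterByExpr kept, with TMM scaling. The 7 comparisons had two-sided tests. Calls needed p under 0.05 after Benjamini-Hochberg adjustment over the whole table. The model was tested on simulated independent counts without dissection differences, so that test cannot show how such differences affect the line calls. The labels give 1 mouse per library and no batch. Alternatives were RLE scaling, no filter, 1 CPM in 5 libraries, DESeq2 1.42.0, limma-voom (limma 3.58.1) with sample weights, a replicate block, a fit of the compared groups alone, the sum of all rows of a member, and each library left out. Fits added after the data were seen left out the 4 libraries highest in thalamic markers or took cortical and thalamic marker sums as covariates. Figures used matplotlib 3.10.9.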

Additional observations from a re-analysis of the deposited data

Results flagged for a closer look

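Some libraries stood far from the other 4 of their group, by a gap to the nearest library above 0.710 of the group's range. This was tested in 32 sets of 5 values (8 member rows in 4 groups) and found 8. Chance gives about 1 in 20 for normal and independent values. The class II rows hold low, skewed values that vary together, and they gave 6 of the 8, so that rate does not apply to them. Overactive amphetamine library 1 was high in Cd74 (3.03 CPM, next 0.813), H2-Aa (0.860, next 0.188) and H2-Eb1 (0.880, next 0.188). Control saline library 3 was high in Cd74 (2.95, next 1.05). H2-Eb1 was high in control amphetamine library 4 (0.704, next 0.216) and overactive saline library 4 (0.487, next 0.231). Control amphetamine library 4 was also high in the H2-T23 row (6.36, next 4.39). H2-K1 was high in overactive saline library 1 (5.97, next 4.50).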

How the results depend on the processing

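Over both treatments the number of member rows called between the lines was 2. It was also 2 with RLE scaling, a filter of 1 CPM in 5 libraries, DESeq2, the replicate block and the sum of all rows of a member. It was 1 without a filter (H2-K1 adjusted p = 0.0544), 1 with limma-voom (0.0912), 1 without the 4 libraries highest in thalamic markers (0.163), 0 with marker sums as covariates, and 0 to 2 with 1 library left out. In the other 6 comparisons it was 0 in every fit. Over all loci tested, replicate numbers did not pair the samples (r above 0.1 in 10 of 30 same-number pairs, and 5 of 20 libraries closest to their own number). H2-K1, however, was highest in library 1 of each group (9.11, 9.07, 5.97 and 4.22 CPM). The H2-D1 row was highest in library 1 of control saline, control amphetamine and overactive saline (16.4, 22 and 19.7 CPM). In overactive amphetamine it held 15 CPM in library 1 and 15.1 CPM in library 5. Whether these rows follow the replicate number was not tested. The replicate block gave log2 -0.54 for H2-K1 (adjusted p = 0.0103) and -0.26 for B2m (0.0466). Under the block Ctss lost its call under amphetamine (-0.54, adjusted p = 0.054).

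Signs that turned belonged to values that had not passed, and the cause was not tested. For amphetamine over both lines, H2-Aa was -0.15 with limma-voom and -0.106 with the covariates, Cd74 -0.401 with the covariates, and without the 4 libraries H2-Eb1 was 0.225 and the H2-D1 row 0.0646. Between the lines, the covariates gave 0.219 for H2-Eb1, 0.0324 for the H2-D1 row, -0.0798 for Tap1 and -0.0325 for Psmb8, and the fit without the 4 libraries -0.128 for Tap1 and -0.0776 for Psmb8. With 1 library left out, the amphetamine values over both lines ran from -0.688 to 0.138 for H2-Eb1, -0.114 to 0.0503 for the H2-D1 row, -0.472 to 0.328 for H2-Aa and -0.36 to 0.416 for Cd74. In the control line H2-K1 ran from -0.327 to 0.0321, in the overactive line B2m from -0.0749 to 0.107, and the difference in response of B2m from -0.181 to 0.00841. The line values ran from -0.785 to 0.195 for H2-Eb1, -0.108 to 0.00324 for the H2-T23 row, -0.0259 to 0.881 for H2-T10, -0.0372 to 0.0915 for Tap1 and -0.00563 to 0.0836 for Psmb8.

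The counts of all loci called between the lines over both treatments, in saline and under amphetamine (1208, 191 and 78) were 2095, 764 and 322 with DESeq2, and 323, 95 and 17 without the 4 libraries. With the covariates the first 2 were 160 and 23. In saline limma-voom called 297, and under amphetamine the replicate block called 51 and the fit of those groups alone 50. For amphetamine against saline DESeq2 called 40 loci in the overactive line and 181 over both, and the fit without the 4 libraries 31 and 80. Class II counts of 0 to 148 per library limit the precision of those rows.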
